A study of Mus musculus with 6 samples.

Results

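*Fgf11*, *Fgf12*, *Fgf13* and *Fgf14* encode the intracellular FGF homologous factors (FHFs), and their expression was followed in dental pulp of the mouse mandibular first molar at P3.5 (3.5 days after birth), when root formation begins. The 4 genes were taken by family name from 27506 genes in the count table, and all 4 passed the filter on low counts that kept 19330 genes. The family was chosen by the difference in *Fgf13* counts between the genotypes in these same libraries. That difference of *Fgf13* is therefore given as a description without a test, whereas the other 3 genes came with it by name and are tested.

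FHFs resemble secreted FGFs in their core sequence but lack a signal peptide and stay inside the cell. They bind the cytoplasmic tail of voltage-gated sodium channels and tune how the channels inactivate, and they are best known from neurons and cardiac muscle. FGF13 also binds tubulin and stabilizes microtubules in growing neurons. Dental pulp is a neural crest-derived connective tissue that sensory axons enter after birth.

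The 6 libraries came from C57BL/6 mice, 3 from *Ror2fl/fl* controls and 3 from *Osr2-Cre;Ror2fl/fl* mutants, bred by crossing *Osr2-Cre;Ror2fl/+* males with *Ror2fl/fl* females. Both groups carried floxed alleles of *Ror2*, which encodes a receptor for non-canonical Wnt ligands. By the genotype labels only the mutants carried *Osr2-Cre*, a transgene active in the dental mesenchyme and alveolar bone but not in the dental epithelium. The sources used here do not say how many pups made a library, their sex, or whether the libraries of a group came from separate litters, so the p-values below measure the spread between these libraries, which may be partly technical. Sample titles of both groups carry the indexes 5, 6 and 7 with different number codes. They also carry letter codes that are not explained, WW in control library 1, OW in the other controls and OR in the mutants. All controls were grouped by their genotype label, so a difference between WW and OW controls is part of the spread within that group. Whether the groups were dissected and sequenced together is not given. A difference in handling between the groups therefore cannot be told apart from genotype. The comparison asks how expression in the pulp differed once the mesenchyme had lost *Ror2*.

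The libraries held 56134770 to 62628940 estimated counts, and values are given as CPM, counts per 1000000 after scaling with edgeR's TMM method. *Ror2* itself was at 36.2 to 38.2 CPM in control and 26.3 to 28.1 CPM in mutant libraries (log2 fold change -0.43; edgeR's quasi-likelihood test, adjusted p = 0.013). These counts sum over all exons of the gene and all cells of the tissue. The part of exons outside any deleted stretch, or of cells without Cre, was not tested. The dental mesenchyme markers were present, with *Msx1* at 52.9 to 76.5 CPM. Enamel matrix genes of the dental epithelium were very abundant in tissue labelled as pulp. *Amelx*, *Ambn* and *Enam*, the genes for the major enamel matrix proteins of ameloblasts, together took 17.3% to 18.9% of all counts in control and 18.6% to 23.7% in mutant libraries. In such bulk tissue, fewer cells of a type and less RNA per cell cannot be told apart.

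*Fgf13* lies on the X chromosome (mm10, chrX:59062145-59568071, minus strand, 505.9 kb), and its GENCODE M21 model has 11 merged exons with 4019 bases. Of its 9 annotated transcripts, 3 have complete coding sequences, with 245, 192 and 187 residues, each starting at its own first exon. They share 1939 bases, or 77.6% to 92.7% of each transcript, so most reads cannot be assigned to a start, and the gene count sums over all of them. RefSeq (GRCm38.p6) lists 4 start regions for *Fgf13*. The 3 windows of 300 bases nearest to the starts of those transcripts are printed 5′ to 3′ on the minus strand because the gene count does not tell from which of them the reads came. Capitals mark CG dinucleotides, which read CG on both strands.
start of the 245-residue form, chrX:59134387-59134686: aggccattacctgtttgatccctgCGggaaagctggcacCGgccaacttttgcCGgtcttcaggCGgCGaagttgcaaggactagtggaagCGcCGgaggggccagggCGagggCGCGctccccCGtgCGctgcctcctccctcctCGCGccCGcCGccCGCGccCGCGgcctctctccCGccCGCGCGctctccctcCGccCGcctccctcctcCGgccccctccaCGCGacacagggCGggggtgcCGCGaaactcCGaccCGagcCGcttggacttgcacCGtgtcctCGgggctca
start of the 192-residue form, chrX:59166039-59166338: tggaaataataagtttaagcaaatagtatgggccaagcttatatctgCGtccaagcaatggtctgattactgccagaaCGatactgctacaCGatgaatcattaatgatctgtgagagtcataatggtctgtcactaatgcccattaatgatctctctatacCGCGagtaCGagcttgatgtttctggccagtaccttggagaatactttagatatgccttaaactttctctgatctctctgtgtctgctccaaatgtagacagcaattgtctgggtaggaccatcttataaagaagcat
start near the 187-residue form, chrX:59567299-59567598: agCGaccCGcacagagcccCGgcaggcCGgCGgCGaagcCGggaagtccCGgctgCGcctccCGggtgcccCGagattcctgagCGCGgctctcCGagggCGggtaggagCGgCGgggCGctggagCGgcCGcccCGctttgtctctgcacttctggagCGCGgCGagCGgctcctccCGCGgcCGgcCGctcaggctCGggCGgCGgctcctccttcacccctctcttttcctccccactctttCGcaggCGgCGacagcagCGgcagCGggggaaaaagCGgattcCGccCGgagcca
The first of these windows held 37 CG dinucleotides and the last held 40, numbers that 5.58% and 3.91% of 32851 RefSeq windows of the same length reached or passed. The middle window held 6, a number that 56.4% of all windows reached or passed, and the remaining window, not printed, held 3. Thus *Fgf13* has starts both with dense and with sparse CG dinucleotides, and the counts do not separate them.

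The other members lie on autosomes. *Fgf11* is a compact gene (chr11:69796068-69801857, minus strand, 3044 exon bases). *Fgf12* (chr16:28160098-28753068, minus strand, 6203 exon bases) and *Fgf14* (chr14:123977907-124677127, minus strand, 4182 exon bases) span 593.0 kb and 699.2 kb. The coding sequences of the longest forms were 61.3% to 69.7% identical between members. The longest exact run that any pair had in common was 15 bases, shown here because it is far shorter than the 75-base reads, so that reads of one member could be told from those of another.
run in the coding sequence of *Fgf12* and *Fgf14*: ATGAATGGAGGCAAA
run in the coding sequence of *Fgf13* and *Fgf14*: TGAATGGAGGCAAA
No 75-base stretch was shared between members. *Fgf14* shared 76 such stretches, 1.85% of its own, with the antisense gene *Gm28932*, and summing both genes gave a log2 fold change of -0.49 in place of -0.53.

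*Fgf13*, which carried the largest difference of the family, was at 14.8, 19.2 and 18.8 CPM in control libraries 1 to 3 and at 7.63, 6.39 and 6.24 CPM in mutant libraries 1 to 3. Every mutant value was below every control value. The underlying estimated counts were 952 to 1159 in control and 368 to 451 in mutant libraries, so counting error was small against the gap. The Poisson 95% interval of the lowest control library ran from 13.9 to 15.8 CPM and that of the highest mutant library from 6.94 to 8.37 CPM, and such intervals cover counting error only. The mean was 17.6 ± 2.45 CPM (SD, n = 3) in control and 6.75 ± 0.762 CPM in mutant libraries, 61.6% lower in the mutants, with a log2 fold change of -1.38 (SE 0.15). Of all genes tested, 44.7% had groups that did not overlap, 22.1% with the mutants lower and 22.6% with the mutants higher, but *Fgf13* was chosen for this difference and nothing can be read from its place among them. Leaving out each library in turn gave -1.50 to -1.32.

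**Figure D1:**
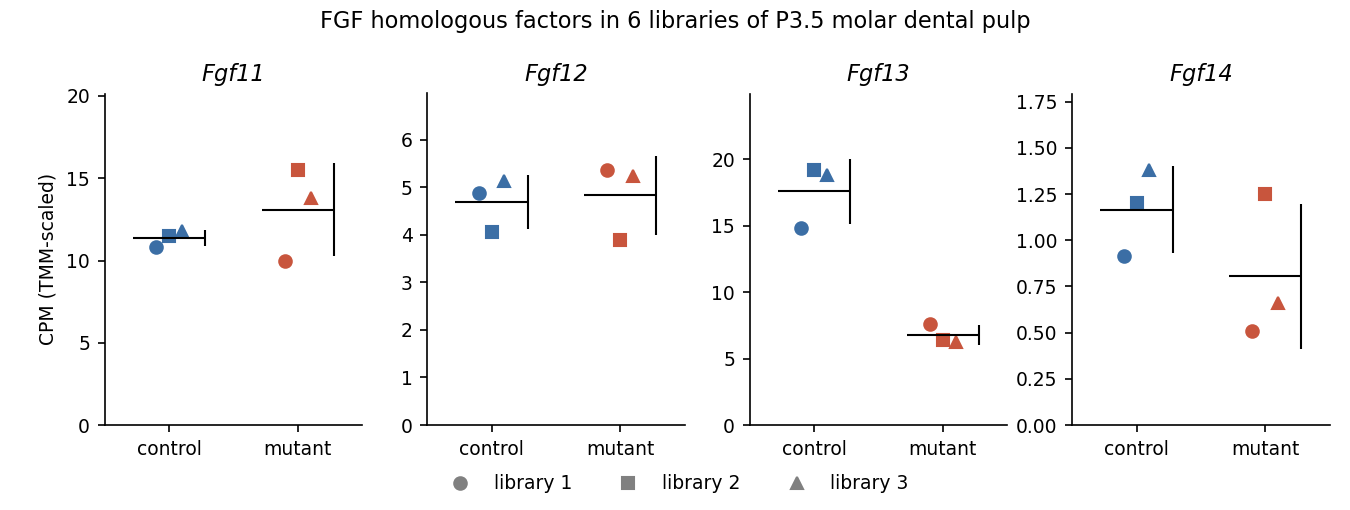
Expression of the 4 FHF genes in CPM (linear axes from 0, one scale per gene) in 3 control and 3 mutant libraries. Points are libraries, horizontal lines group means and vertical lines SD. The mutant libraries lie below the controls for *Fgf13* (6.24 to 7.63 against 14.8 to 19.2 CPM) and overlap them for the other 3 genes.

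*Fgf11*, the other well-expressed member, was at 10.8, 11.5 and 11.8 CPM in control and at 9.98, 15.5 and 13.8 CPM in mutant libraries. Mutant library 1 lay below all controls and mutant libraries 2 and 3 above them, so the groups overlapped. The mean was 11.4 ± 0.485 CPM (SD, n = 3) in control and 13.1 ± 2.81 CPM in mutant libraries. The log2 fold change was 0.20 (95% interval -0.18 to 0.58; edgeR's quasi-likelihood test, adjusted p = 0.4), and the two-sided exact permutation test gave p = 0.4, where 0.1 is the smallest p that 3 libraries against 3 allow. The interval reached from 0.885-fold to 1.49-fold.

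*Fgf12* was the member with the least difference. Control libraries 1 to 3 had 4.88, 4.05 and 5.12 CPM, mutant libraries 1 to 3 had 5.36, 3.88 and 5.24 CPM, with library 2 the lowest of each group. The log2 fold change was 0.04 (95% interval -0.37 to 0.45; edgeR adjusted p = 0.88; exact permutation p = 0.7). The sign turned without control library 2 (-0.06), without mutant library 1 (-0.04) and without mutant library 3 (-0.02).

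*Fgf14* was the least abundant member, with 30 to 85 counts per library. It was at 0.916, 1.20 and 1.38 CPM in control and at 0.507, 1.25 and 0.661 CPM in mutant libraries. Mutant libraries 1 and 3 lay below all controls, and mutant library 2 lay among them. The log2 fold change was -0.53 (95% interval -1.37 to 0.31; edgeR adjusted p = 0.31; exact permutation p = 0.3), and it was -0.98 without mutant library 2 (adjusted p = 0.0531) and -0.29 without mutant library 1 (adjusted p = 0.58). Poisson intervals of single libraries spanned 0.342 to 0.724 CPM in mutant library 1 and 0.976 to 1.57 CPM in mutant library 2, which do not overlap, so the mutant libraries differed from each other by more than counting error. Of the 3 members tested, 0 were called by edgeR at an adjusted p under 0.05, beside 20.2% of all genes tested. The unadjusted p-values of *Fgf11*, *Fgf12* and *Fgf14* were 0.26, 0.81 and 0.18, so 0 lay under 0.05, and DESeq2 called 0 as well.

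To compare the members with each other, CPM were divided by the length of each gene's merged exons. Single transcripts with complete coding sequences are shorter, at 831 to 4137 bases against 6203 for *Fgf12* and 2091 to 2499 against 4019 for *Fgf13*. The order, shares and ranks per length therefore hold for merged exons, and other lengths were not tried. In control libraries *Fgf13* stood first with 4.38 ± 0.609 CPM per kb (SD, n = 3) and *Fgf11* second with 3.74 ± 0.159 CPM per kb, and their ranges overlapped. *Fgf12* followed at 0.755 ± 0.0904 and *Fgf14* at 0.278 ± 0.0556 CPM per kb, each separate from the member above it. In mutant libraries the order was *Fgf11* (4.30 ± 0.925), *Fgf13* (1.68 ± 0.190), *Fgf12* (0.778 ± 0.132) and *Fgf14* (0.193 ± 0.0934 CPM per kb), and no neighbours in this order overlapped. *Fgf13* and *Fgf11* thus changed places between the genotypes.

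*Fgf13* made up 44.6%, 50.3% and 48.2% of the per-length sum of the family in control libraries 1 to 3 and 30.8%, 20.9% and 21.9% in mutant libraries 1 to 3. The family sum was 9.15 ± 0.789 CPM per kb (SD, n = 3) in control and 6.95 ± 0.728 in mutant libraries. The sum of *Fgf11*, *Fgf12* and *Fgf14* was 4.77 ± 0.231 and 5.27 ± 0.901 CPM per kb, so the spread of the mutant libraries covered the control mean. The share of *Fgf11* correspondingly went from 41.0% ± 1.92 to 61.3% ± 7.21 (SD, n = 3). These shares include *Fgf13* and are a description.

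**Figure D2:**
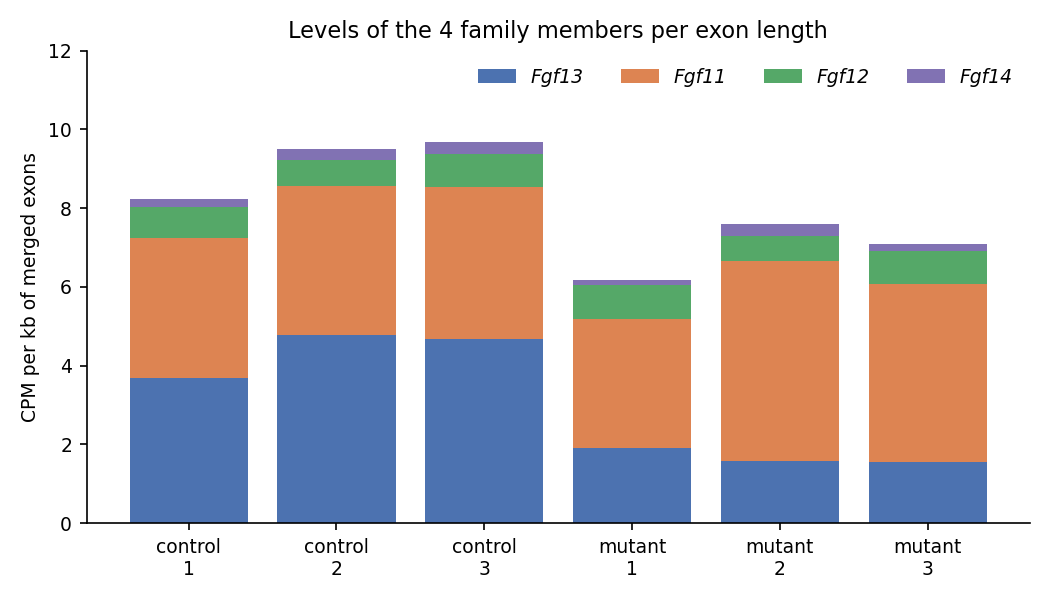
Stacked levels of the 4 members in CPM per kb of merged exons, by library. The *Fgf13* segment is 3.68 to 4.78 CPM per kb in control and 1.55 to 1.90 in mutant libraries, while the *Fgf11* segment is 3.28 to 5.08 across all 6.

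Among 20 FGF genes in the table, ranked per length, *Fgf13* took place 2 in control and place 3 in mutant libraries. *Fgf1*, a secreted FGF without a classical signal peptide, took place 1 in both, at 9.06 and 11.1 CPM per kb. *Fgf11* took place 3 in control and place 2 in mutant libraries. Of 18 secreted FGFs listed, 16 were in the table and 12 were tested. In edgeR's test 1 of the 12 was called (8.33%, beside 20.2% of all genes), and DESeq2 called 2, both lower. The gene called by edgeR was *Fgf2*, a mitogen of mesenchymal cells, with 6.58 ± 1.46 CPM (SD, n = 3) in control and 3.92 ± 0.338 CPM in mutant libraries (log2 fold change -0.75; edgeR adjusted p = 0.032). *Fgf1* (49.5 and 60.5 CPM, adjusted p = 0.078) and *Fgf10*, a mesenchymal ligand for epithelial receptors (2.93 and 1.83 CPM, adjusted p = 0.064), did not pass. The median log2 fold change of the 12 was 0.05, beside 0.01 over all genes.

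Sodium channel subunits, the partners on which FHFs act, were described next. Of 14 subunit genes, 12 were tested, of which 3 fell and 0 rose in edgeR's test, beside 9.84% of all genes called lower and 10.4% called higher. By DESeq2 4 fell and 0 rose, where 14.0% of all genes were called lower and 14.0% higher. At an unadjusted p under 0.05 in edgeR, 4 were lower and 0 higher, where 18.7% of all genes were lower and 19.6% higher. *Scn9a*, the pore-forming subunit of Nav1.7, was at 2.48, 4.32 and 4.26 CPM in control and at 0.879, 0.624 and 0.847 CPM in mutant libraries. It fell without overlap of the groups (log2 fold change -2.23, SE 0.28; edgeR adjusted p = 0.0023). *Scn1a*, which encodes the pore of Nav1.1, fell from 0.821 ± 0.230 to 0.222 ± 0.0909 CPM (SD, n = 3; log2 fold change -1.87; adjusted p = 0.019), on at most 60 counts per library.

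*Scn2b*, a single-pass auxiliary subunit, fell from 7.08 ± 0.486 to 3.71 ± 1.67 CPM (SD, n = 3; log2 fold change -0.93; edgeR adjusted p = 0.0496), close to the threshold. Mutant library 3 was at 5.64 CPM, near the lowest control at 6.64 CPM. The auxiliary subunit *Scn4b* (2.37 and 2.72 CPM, adjusted p = 0.47) did not pass. The median log2 fold change of the list was -0.42, beside 0.01 over all genes tested. The summed CPM of the 14 genes was 18.6 to 22.7 in control and 13.3 to 14.6 in mutant libraries. Without control library 2 or without control library 3, *Scn9a* alone was called.

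Proteins that bind FHFs or sit with sodium channels at the axon initial segment gave 14 tested genes, of which 1 rose and 2 fell (21.4% called, beside 20.2% of all genes), with a median log2 fold change of -0.17. *Nrcam*, a cell adhesion molecule of the axon initial segment, fell from 1.44 ± 0.183 to 0.614 ± 0.148 CPM (SD, n = 3; log2 fold change -1.22; edgeR adjusted p = 0.019). *Calm2*, a calmodulin gene, was at 176 and 172 CPM (adjusted p = 0.84).

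*Mapk13*, a p38 kinase, rose from 14.6 ± 2.02 to 24.6 ± 5.13 CPM (SD, n = 3; log2 fold change 0.75; edgeR adjusted p = 0.021). *Cavin1*, a caveolar coat protein, was at 155 and 161 CPM (adjusted p = 0.75). None of the 14 was called without control library 2 or without control library 3, and 5 were called after an offset for GC content, with *Calm3* and *Jph2* added.

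Of 22 tubulin and microtubule-binding genes, 20 were tested, of which 1 rose and 4 fell, that is 5 of 20 called beside 20.2% of all genes, with a median log2 fold change of -0.21. *Dclk1*, a doublecortin-like microtubule-binding kinase, fell from 24.6, 32.1 and 31.5 CPM in the controls to 18.0, 17.2 and 11.3 CPM (log2 fold change -0.92; edgeR adjusted p = 0.015). *Map1a* (log2 fold change -0.82, adjusted p = 0.025) and *Map2* (-0.72, adjusted p = 0.017), which stabilize microtubules, fell too. The groups did not overlap for any of these 3 genes.

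Both stathmin genes called were named after their values were seen. *Stmn1*, a tubulin-sequestering protein, fell (38.6 and 25.9 CPM, edgeR adjusted p = 0.03), and its neuronal relative *Stmn2* rose (7.07 and 15.3 CPM, adjusted p = 0.029). The abundant tubulins *Tuba1a* (707 and 526 CPM, adjusted p = 0.083) and *Tubb5* (530 and 544 CPM, adjusted p = 0.84) and the binding protein *Map4* (289 and 233 CPM, adjusted p = 0.1) did not pass. None of the 20 was called without control library 2 or without control library 3, and 2, *Dclk1* and *Map2*, were called without mutant library 1.

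**Figure D3:**
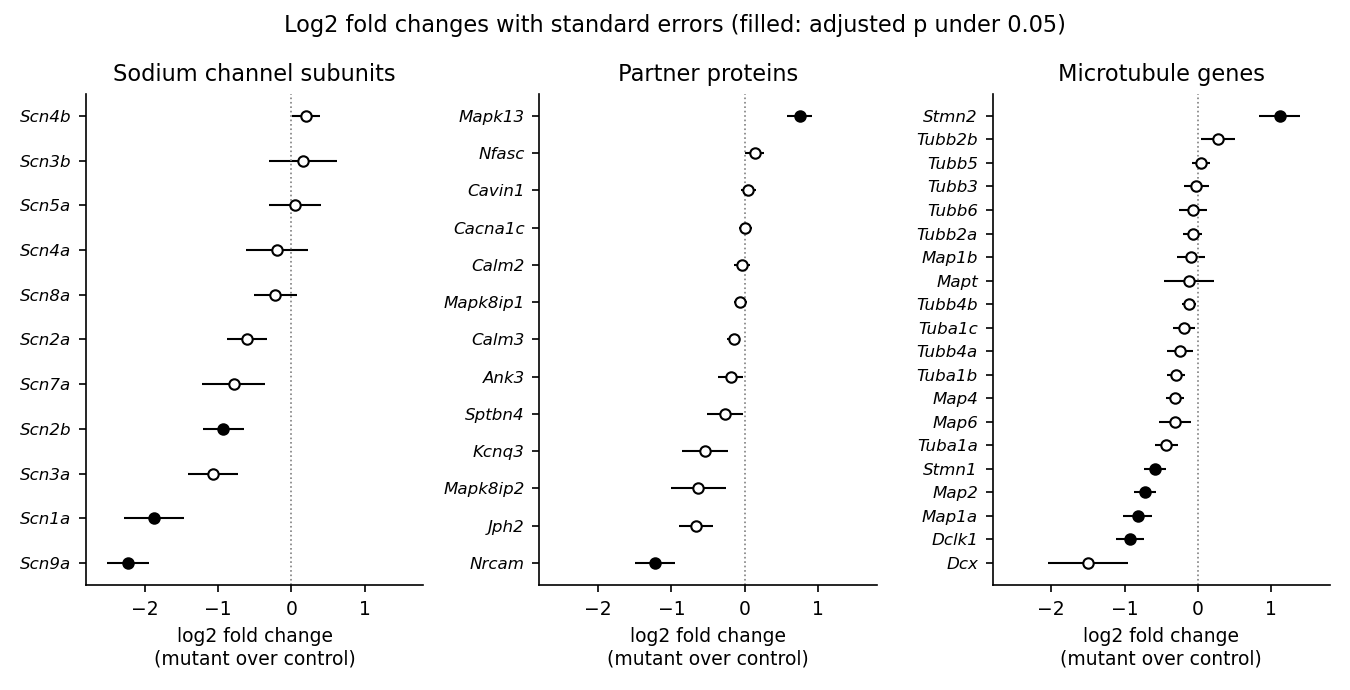
Log2 fold changes (mutant over control) with standard errors for tested sodium channel, partner and microtubule genes, without listed genes that are not reported here. Filled points have an adjusted p under 0.05: *Scn9a*, *Scn1a* and *Scn2b* on the left, *Nrcam* and *Mapk13* in the middle, and *Dclk1*, *Map1a*, *Map2*, *Stmn1* and *Stmn2* on the right.

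Since FHFs and sodium channels are typical of excitable cells, summed markers of such cells were set beside *Fgf13*. The 9 skeletal muscle markers summed to 23.8, 41.4 and 11.6 CPM in control and to 3.20, 4.19 and 4.17 CPM in mutant libraries. Of the 8 tested, 7 fell and 0 rose by edgeR, by DESeq2 and at an unadjusted p under 0.05, with a median log2 fold change of -2.59, for example *Acta1*, skeletal actin, at 4.89 to 12.2 CPM against 1.28 to 1.40 CPM (edgeR adjusted p = 0.0018). Over all genes tested, 9.84% were lower by edgeR, 14.0% by DESeq2 and 18.7% at an unadjusted p under 0.05 in edgeR. Beside these sums, *Fgf13* was at 14.8, 19.2 and 18.8 CPM in control libraries 1 to 3 and at 7.63, 6.39 and 6.24 CPM in mutant libraries 1 to 3. The part of muscle RNA in the differences of *Fgf13* and the sodium channel genes between the genotypes was not tested.

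The 14 neuron markers summed to 23.5 to 28.9 CPM in control and 30.5 to 35.2 CPM in mutant libraries, most of it from *Uchl1*. Of the 5 tested, 0 were called by edgeR or DESeq2, beside 20.2% of all genes called by edgeR. Among the 5, 1, *Uchl1*, had an unadjusted p under 0.05, and the groups overlapped for *Snap25*, a synaptic protein, and *Calca*, the precursor of CGRP. The 9 Schwann cell markers summed to 29.4 to 38.5 and 36.7 to 43.7 CPM, with a median log2 fold change of -0.02. Of the 9, 2 rose and 0 fell by edgeR, among them *S100b* (log2 fold change 0.91, adjusted p = 0.015), while by DESeq2 and at an unadjusted p under 0.05 1 was lower. By edgeR this was 22.2% of the list, near the 20.2% of all genes called. The most abundant, *Mbp* (14.0 and 13.8 CPM, adjusted p = 0.95) and *Erbb3* (10.3 and 12.1 CPM, adjusted p = 0.32), did not pass, nor did *Cdh19* (0.806 and 0.286 CPM, adjusted p = 0.063) or the neuron marker *Elavl4* (0.548 and 0.336 CPM, adjusted p = 0.23). The part of nerve cells in the difference of *Fgf13* was not tested. The 10 dental mesenchyme markers summed to 521 to 574 and 612 to 762 CPM, but their median log2 fold change was -0.21, and 2 rose and 1 fell (30.0% called, beside 20.2% of all genes). Among them *Msx2* and *Gli1*, a hedgehog target, rose (168 to 219 CPM and 119 to 246 CPM, adjusted p = 0.042 and 0.016), and *Prrx1* fell (-0.69, adjusted p = 0.018).

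RNA of other cells differed between libraries as well. The 10 dental epithelium markers summed to 172000 to 192000 CPM in control and 185000 to 256000 CPM in mutant libraries, with a median log2 fold change of 0.29. Of the 10, edgeR called 0, and DESeq2 called 3 higher and 0 lower, where 14.0% of all genes were called higher. At an unadjusted p under 0.05 in edgeR, 5 were higher and 0 lower, where 19.6% of all genes were higher. Of 7 erythroid genes 2 fell, *Hba-a1* and *Alas2* (28.6% called, beside 20.2% of all genes). The sum of the 7 was 784 to 1330 CPM in control and 245 to 942 CPM in mutant libraries, with mutant library 2 the highest of the mutants. The 7 odontoblast markers ranged widely within both groups, from 20100 to 60100 and from 17300 to 46800 CPM, and 0 were called by edgeR or DESeq2 or had an unadjusted p under 0.05. The 8 smooth muscle and pericyte markers summed to 274 to 353 and 232 to 297 CPM, those of endothelium (7 genes) to 192 to 248 and 198 to 235 CPM, and those of leukocytes (7 genes) to 88.6 to 110 and 83.7 to 127 CPM, all sums with overlapping groups. By edgeR 0, 1 and 3 genes of these lists were called, or 0%, 14.3% and 42.9%, beside 20.2% of all genes. Of the 8 smooth muscle and pericyte genes, DESeq2 called 2 lower and 0 higher, where 14.0% of all genes were called lower. At an unadjusted p under 0.05 in edgeR, 2 of the 8 were lower and 0 higher, where 18.7% of all genes were lower. The endothelial *Egfl7* rose (adjusted p = 0.016). Among leukocyte genes *Tyrobp* and *Fcer1g* rose (adjusted p = 0.041 and 0.043) and *Adgre1* fell (adjusted p = 0.0476). The part of these cells in the difference of *Fgf13* was not tested.

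**Figure D4:**
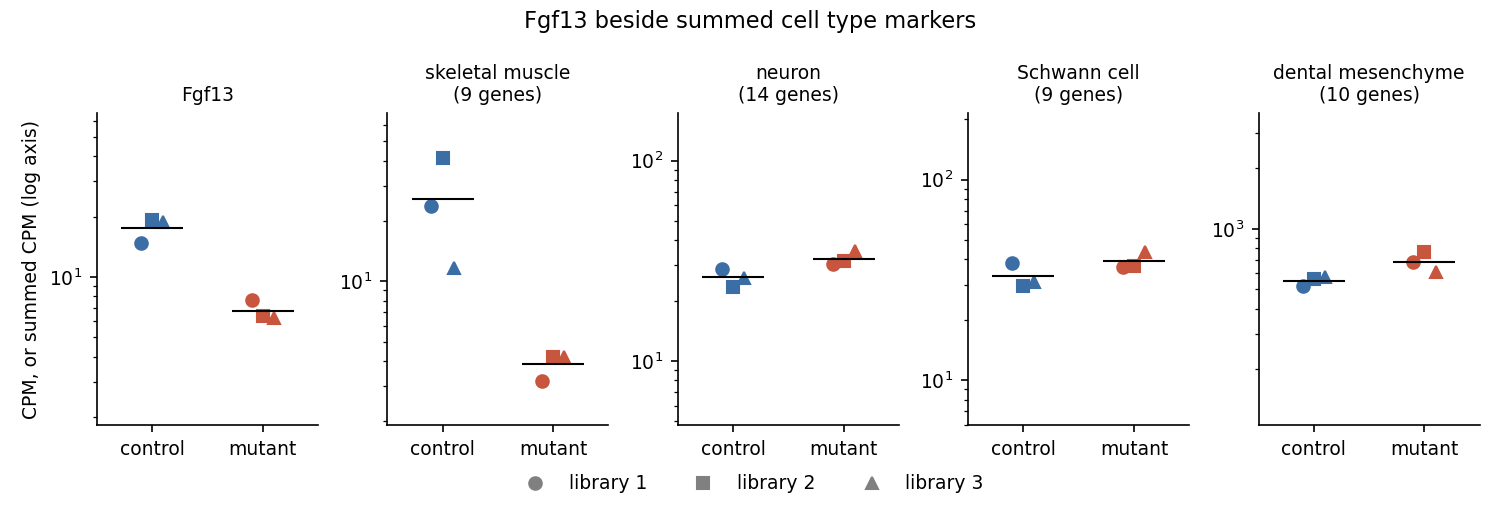
*Fgf13* in CPM beside the summed CPM of skeletal muscle, neuron, Schwann cell and dental mesenchyme markers, by library, on log axes of equal span. Horizontal lines are group means. The muscle sum is lower in all mutant libraries (3.20 to 4.19 against 11.6 to 41.4 CPM), as *Fgf13* is, whereas the neuron sum, mostly *Uchl1*, is higher (30.5 to 35.2 against 23.5 to 28.9 CPM).

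Because *Fgf13* is X-linked, the sex of the libraries was examined. *Xist*, transcribed from the inactive X chromosome of females, was at 760 CPM in control library 2 and 617 CPM in mutant library 2, and at 0.135 to 2.68 CPM in the other 4 libraries. The Y-linked gene *Ddx3y* was at 53.6 to 56.9 CPM in those 4 and at 0.240 and 0.433 CPM in the libraries with high *Xist*. Each group thus held 1 library with high *Xist*. *Fgf13* was at 19.2 and 6.39 CPM in the high *Xist* control and mutant library, and at 14.8 and 18.8 against 7.63 and 6.24 CPM in the others. Every mutant value was below every control value, so any split of the libraries would give lower values in the mutants. With *Xist* level as a second factor, a fit chosen after seeing the data, the log2 fold change of *Fgf13* was -1.38. *Fgf13* was chosen for its difference in these libraries, so these values are a description, and the part of sex was not tested.

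Of 691 X-linked genes tested, 20.1% were called lower in the mutants, beside 9.84% of all genes. Their median log2 fold change was -0.19 (5th to 95th percentile -1.22 to 1.21), and that of all genes 0.01 (-0.93 to 1.23). The tested genes nearest to *Fgf13* on the chromosome were processed pseudogenes. *Gm5389*, 1401.2 kb away, had at most 0.081 CPM in control and at least 0.761 CPM in mutant libraries (log2 fold change 3.93; edgeR adjusted p = 0.0018), and *Gm5637*, 477.0 kb away on the other side, had 3.89 to 4.22 and 5.15 to 6.33 CPM (log2 fold change 0.48; adjusted p = 0.0482). Both pseudogenes were higher in the mutants, but *Gm5389* was near the floor in the controls. Whether reads at these pseudogenes came from similar genes elsewhere was not tested. Any part of the surrounding region in the difference of *Fgf13* was not tested either.

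The patterns nearest to that of *Fgf13* over the 6 libraries were sought among 15048 tested genes with a mean of at least 1 CPM, by the root mean square (RMS) difference of log2 CPM centred on the control mean. The nearest was *Kcnt2*, a sodium-activated potassium channel, at an RMS difference of 0.08 (log2). Control libraries 1 to 3 had 4.29, 5.64 and 5.62 CPM of it, and mutant libraries 1 to 3 had 2.01, 1.96 and 1.68 CPM. *Pdgfd*, a PDGF ligand, followed at 0.10 with 41.9 ± 6.55 CPM (SD, n = 3) in control and 16.5 ± 4.04 CPM in mutant libraries.

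The netrin receptor gene *Unc5a* (0.11; 3.73 ± 0.618 and 1.47 ± 0.177 CPM) and *Itga8*, an integrin subunit (0.11; 16.6 ± 3.58 and 6.50 ± 1.37 CPM), came next. *Col4a5*, an X-linked type IV collagen chain of basement membranes, was last of the 5 (0.12; 23.0 ± 1.45 and 8.16 ± 1.05 CPM). For all 5, as for *Fgf13*, control library 1 was the lowest of the controls. *Fgf12* and *Fgf11* were far from this pattern, at RMS differences of 1.02 and 1.13 and ranks 8379 and 10550, and *Fgf14* was too low to be ranked. These genes were picked for their likeness over the same libraries, so the likeness is a description.

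**Figure D5:**
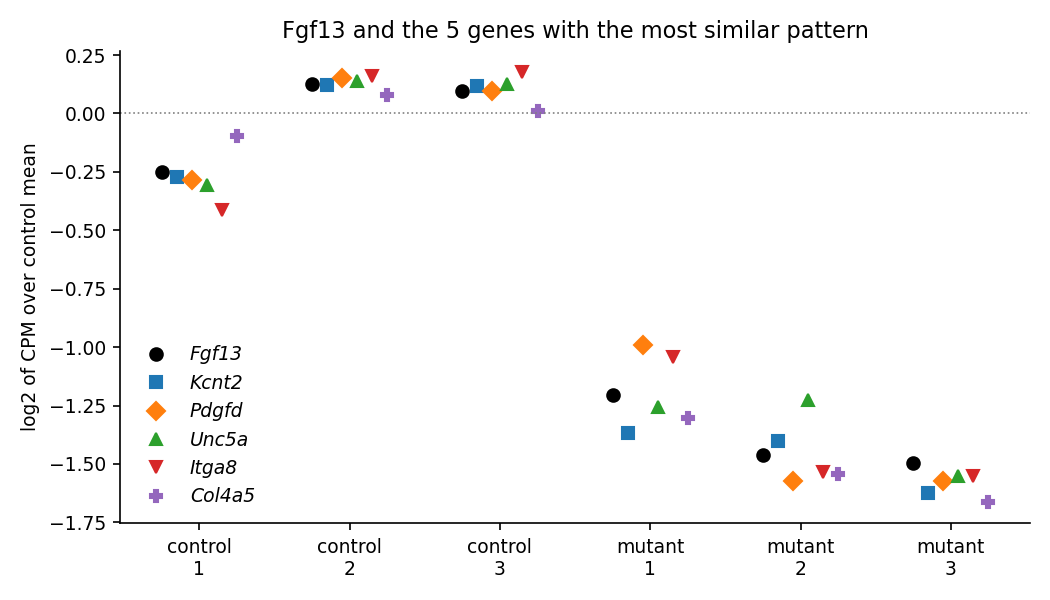
Log2 of CPM over the control mean in each library for *Fgf13* and the 5 genes nearest to it in pattern. All 6 genes are lowest among controls in control library 1 and lie well below 0 in the 3 mutant libraries.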

How the data were processed

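RNA-seq of dental pulp was analyzed from 3 control and 3 mutant libraries, grouped by the genotype in their labels. The authors deposited estimated counts per gene and a table of normalized signal, in which each value is the count plus 1 times one factor per library and is not divided by gene length. The paper's methods name TopHat and mm10 with single-end reads of 75 cycles, whereas the submitters' processing notes name STAR 2.6.1d and Partek; which of them made the tables, and the use of strand, are not given in the sources used here. Whole numbers made up 48.8% of the values (tolerance 1e-06), so some reads were probably split between genes. Another 6 sample columns in that table were not used here. *Fgf4* and *Fgf15* were not analysed here, and some listed genes are counted in their lists but not reported here one by one.

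Counts (56134770 to 62628940 per library) were rounded and tested with edgeR 4.0.16 in R 4.3.3: TMM scaling, filterByExpr, quasi-likelihood test on genotype, Benjamini-Hochberg adjustment over 19330 genes, called at an adjusted p under 0.05. Of them 3906 were called, 2003 higher and 1903 lower in the mutants. The common biological coefficient of variation was 18.7%. For the exact permutation tests, 2 counts were added as a prior before CPM were put on a log2 scale. The code was tested on simulated data. Gene models are GENCODE M21 (mm10). Members, gene lists and tests were chosen with earlier results of these data known. Named genes are the members, *Ror2*, the 3 genes with the smallest p and the 3 with the highest CPM of each list, the 5 nearest in pattern to *Fgf13*, and its nearest tested neighbours. Alternatives were DESeq2 1.42.0 (Wald test, size factors), scaling by library size, other filters (none, CPM of at least 1 in 3 libraries), the normalized table on a log2 scale with pseudocounts of 1 and 0.1 (limma 3.58.1), a GC offset, a replicate block, summing genes that share sequence, and leaving out each library. *Xist* level as a second factor and library sizes without the enamel matrix genes were added after seeing the data.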

Additional observations from a re-analysis of the deposited data

How the results depend on the processing

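The log2 fold change of *Fgf13* lay between -1.50 and -1.22 over 18 alternatives. *Fgf11* (0.07 to 0.36, adjusted p 0.082 to 0.76), *Fgf12* (-0.06 to 0.23, 0.38 to 0.96) and *Fgf14* (-0.98 to -0.18, 0.0531 to 0.75) passed the threshold under none of theirs, and the sign of *Fgf12* turned only when a library was left out (-0.06 to 0.19). Leaving out a library gave 872 genes called (without control library 3) to 5001 (without mutant library 3) in place of 3906, with 910 without control library 2 and 2404 without mutant library 1. It gave 1 to 4 sodium channel genes in place of 3, 0 to 4 partner genes in place of 3, and 0 to 5 microtubule genes in place of 5. The GC offset gave 5 partner genes. With the replicate number as a block, 2013 genes were called, 2 sodium channel genes, 2 partner genes and 4 microtubule genes, and no call among *Fgf11*, *Fgf12* and *Fgf14* changed. The paper's methods speak of 3 pairs of samples, but the labels do not say which libraries pair. The deviations of same-numbered libraries from their group means correlated at -0.1, -0.08 and -0.004 across genes. These correlations cannot decide the pairing, because each compares 1 control with 1 mutant library. The causes of these shifts were not tested. The 3 libraries a group limit all tests, and *Fgf14* had only 30 to 85 counts per library.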
